A study of Rattus norvegicus with 8 samples.

Results

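The genes described here are 10 markers of microglia and macrophages: Gpnmb, Tmem119, P2ry12, Cx3cr1, Csf1r, Trem2, Tyrobp, Itgam, Aif1 and Cd68. They were chosen by name, as the non-control probes of the array that carry 1 of these symbols, and make up 10 of the 35901 gene names on the array and 15 of its 45598 non-control probes. All 10 were tested among 22593 genes, since each had a probe whose signal stood well above background on 4 or more of the 8 arrays. They were measured in cultures labelled as hippocampal neurons from Wistar rats of postnatal day 0-1, grown in NeurobasalA medium with B27 and Glutamax. On day 3 in vitro all cultures were infected with lentiviral vectors at a multiplicity of infection of 6. One group of 4 samples carried an shRNA against Sirt6, which encodes a chromatin-bound sirtuin deacetylase, and the other group of 4 carried a scrambled control shRNA. Total RNA was taken after 7 days, at day 10 in vitro, and hybridised in 1 colour to Agilent arrays. Each arm rests on 1 shRNA. The labels are silent on whether the 4 samples were separate preparations of cells, and the p-values therefore cover no more than the spread among the arrays, which may be technical.

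Microglia are the resident macrophages of the brain. They arise from yolk sac progenitors, depend on signalling through the receptor Csf1r for survival, and enter neuron cultures as a minor cell type carried over from the tissue. In the resting brain they display P2ry12, Cx3cr1 and Tmem119, whereas Trem2 with its adaptor Tyrobp, Cd68 and Gpnmb are linked to phagocytosis and to lysosomal work in activated phagocytes. Gpnmb is also made by other cells, among them melanocytes, osteoclasts and some glia.

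The promoters of these genes are shown first, because the 10 genes were listed as markers of microglia and macrophages and in part share a regulator. PU.1, the master transcription factor of myeloid cells, binds a purine-rich box with the core GAGGAA, and the MiT family, which includes MITF and drives lysosomal genes, binds E-boxes, among them CATGTG. RefSeq start sites of the build GRCr8 gave a promoter for 6 of the 10 genes. In the 3 sequences below, the 250 bases before the start are given 5′ to 3′ on the strand of the gene, with matches to either motif on either strand in capitals. They are Gpnmb at chr4:79340878-79341127 on the plus strand, Cd68 at chr10:54882442-54882691 on the minus strand and Itgam at chr1:192089342-192089591 on the plus strand.
Gpnmb: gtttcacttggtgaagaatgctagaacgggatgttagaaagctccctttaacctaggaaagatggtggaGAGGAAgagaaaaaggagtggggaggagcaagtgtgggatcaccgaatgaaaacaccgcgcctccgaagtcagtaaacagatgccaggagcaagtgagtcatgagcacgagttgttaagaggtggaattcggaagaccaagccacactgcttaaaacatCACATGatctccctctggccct
Cd68: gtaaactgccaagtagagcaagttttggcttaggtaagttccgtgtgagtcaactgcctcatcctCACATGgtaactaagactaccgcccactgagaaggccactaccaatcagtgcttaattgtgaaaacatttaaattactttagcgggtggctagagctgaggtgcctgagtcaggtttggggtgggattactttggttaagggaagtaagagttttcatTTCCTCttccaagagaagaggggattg
Itgam: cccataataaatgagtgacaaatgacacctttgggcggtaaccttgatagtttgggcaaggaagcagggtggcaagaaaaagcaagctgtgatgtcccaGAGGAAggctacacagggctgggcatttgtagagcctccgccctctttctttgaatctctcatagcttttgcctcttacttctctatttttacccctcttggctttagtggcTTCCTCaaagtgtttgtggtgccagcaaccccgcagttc
GAGGAA or its reverse complement TTCCTC was present in 5 of the 6 promoters, those of Gpnmb, Cd68, Itgam, Trem2 and Csf1r, against 23.3% of 33469 promoters of the same length. Cx3cr1 was the promoter of the 6 with no match. CATGTG or CACATG was present in Gpnmb and Cd68, against 12.1% of all promoters. In Gpnmb the E-box began 22 bases before the start and the purine-rich box 181 bases before it. In Cd68 these distances were 185 and 27 bases, and in Itgam the purine-rich boxes began 151 and 39 bases before the start. The motifs do not overlap each other, and a match in the letters is not a measured binding site.

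Values are normalized log2 signals, that is the log2 of the background-subtracted processed signal minus the 75th percentile of its array, so that 0 marks a probe at that percentile. Differences are given as Sirt6 shRNA minus scrambled, and a call means an adjusted p under 0.05 in limma, with Benjamini-Hochberg adjustment over all 22593 genes. Between 60.4% and 65.3% of probes were well above background on each array. Sirt6 was lower on all 4 arrays with its shRNA, at 0.46 to 0.58 against 2.02 to 2.10. The 8 arrays lay on 1 slide, scrambled samples in row 1 and Sirt6 shRNA samples in row 2, and these rows and the groups cannot be told apart. All 10 neuron markers examined passed the filter on dim probes, and so did all 10 microglia and macrophage genes, although the cultures are labelled as neurons.

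One array has to be named before the results. Sirt6 shRNA replicate 2 was the highest of the 4 Sirt6 shRNA arrays for 9 of the 10 microglia and macrophage genes, whereas it was the highest of the 4 for 27.3% of all genes. Scrambled replicate 2 was likewise the highest of its group for 8 of the 10, against 21.0% of all genes. Results are therefore given with and without Sirt6 shRNA replicate 2. That array was singled out by the values of these same genes. Calls and p-values without it are thus descriptive and lend no support. Leaving out any other single array gave 2 or 3 calls among the 10, all lower, against 11.9% to 13.1% of all genes called lower.

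With all 8 arrays, 4 of the 10 genes fell and none rose: Gpnmb, Tmem119, P2ry12 and Csf1r. Over all genes tested, 30.4% were called, 14.8% lower and 15.6% higher. At an unadjusted p under 0.05, 7 of the 10 were lower and 0 higher, against 19.7% and 22.1% of all genes. All 10 differences were below 0, as were 45.6% of those of all genes, and the median difference of the 10 was -0.57 against 0.02 for all genes. Without Sirt6 shRNA replicate 2, 9 of the 10 fell, with Cx3cr1 as the exception, and 14.6% of all genes were called lower and 14.5% higher. In these bulk samples, fewer microglia in the culture and less of an RNA per microglial cell cannot be told apart.

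**Figure D1:**
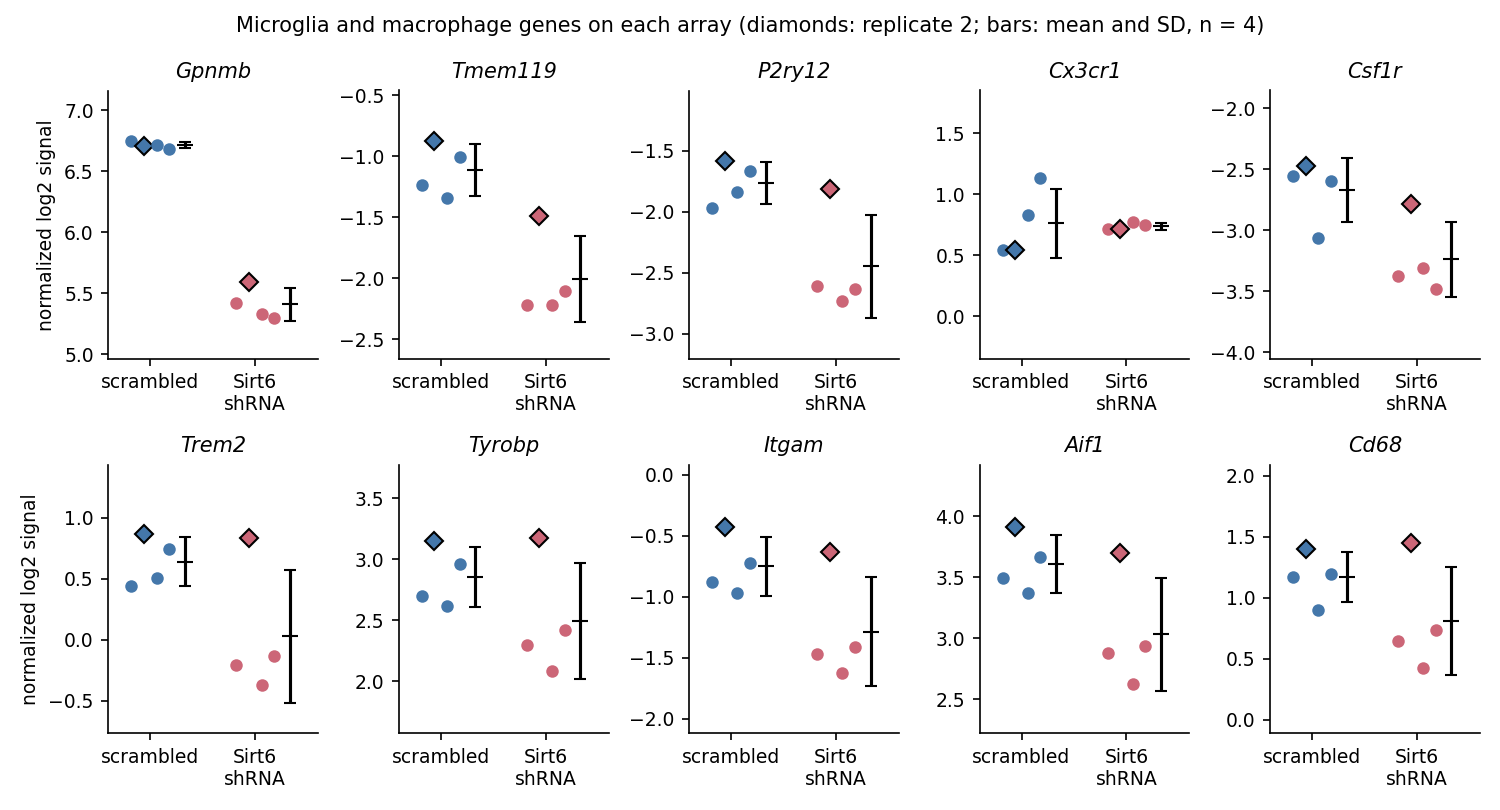
Normalized log2 signal (y axis, log2 units, each panel spanning the same width around its own mean) of the 10 genes on the 4 scrambled arrays (blue) and the 4 Sirt6 shRNA arrays (red). Diamonds mark replicate 2 of each group, and the black bars give the mean and SD of 4 arrays; for Gpnmb and Tmem119 the groups do not overlap, and in most panels the red diamond lies among or near the blue points.

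Gpnmb, a transmembrane glycoprotein of lysosomes and the cell surface, differed most among the 10. Its normalized signal was 6.75, 6.70, 6.71 and 6.68 on scrambled arrays 1 to 4 and 5.41, 5.59, 5.33 and 5.29 on Sirt6 shRNA arrays 1 to 4. Every Sirt6 shRNA array lay more than 1 log2 unit below every scrambled array, and the groups did not overlap. The difference was -1.30 ± 0.066 (SE; limma, adjusted p = 2.6e-05), which left 40.5% of the control level, and the gene ranked 44 of 22593 by p-value. Before scaling, the signal averaged 33732 ± 832 (SD, n = 4) in the scrambled group, and it averaged 14085 ± 1282 (SD, n = 4) in the Sirt6 shRNA group. The probe is spotted 10 times on each array, and the SD among its spots was 0.02 to 0.05 in log2. No spot was saturated.

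Gpnmb also differed from the other 9 in how its level varied. Sirt6 shRNA replicate 2 was 0.25 above the mean of the other 3 Sirt6 shRNA arrays for Gpnmb, and differed by -1.09 from the lowest scrambled array. For 8 of the other 9 genes the same array was 0.60 to 1.07 above the other 3. The pooled SD within groups was 0.10 for Gpnmb, close to the median of 0.09 over all genes, while the median over the other 9 was 0.35. The 3 genes outside the list with the profile closest to Gpnmb were Hpse, the enzyme heparanase, Cbs, which makes cystathionine, and Chi3l1, a secreted chitinase-like glycoprotein. They differed from it by a root mean square of 0.05 to 0.06 over the 8 arrays, and their own differences were -1.39, -1.32 and -1.24. None of the 3 stood in any gene list examined here, whether of microglia or of other cell types.

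Tmem119, a membrane protein that separates microglia from other brain macrophages, was the other gene whose groups did not overlap. Its normalized signal was -1.24, -0.88, -1.35 and -1.01 on scrambled arrays 1 to 4 and -2.22, -1.49, -2.22 and -2.11 on Sirt6 shRNA arrays 1 to 4. Sirt6 shRNA replicate 2 differed by -0.14 from the lowest scrambled array. The difference was -0.89 ± 0.18 (SE; limma, adjusted p = 0.00816), or 53.9% of the control level. Without Sirt6 shRNA replicate 2 it was -1.07 ± 0.12 (adjusted p = 0.00103 by limma), and with normexp background correction, which adds an offset, it was -0.57 and still called. Non-overlapping groups with lower Sirt6 shRNA values were found for 2 of the 10 genes and for 16.1% of all genes, and the opposite for none of the 10 and 17.4% of all genes.

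Among the receptors, P2ry12 and Csf1r fell. P2ry12, which senses ADP and directs microglial processes toward injury, read -1.97, -1.58, -1.84 and -1.66 on the scrambled arrays and -2.60, -1.81, -2.73 and -2.63 on the Sirt6 shRNA arrays. Of the latter, replicate 2 lay inside the scrambled range and the other 3 below it. The difference was -0.68 ± 0.20 (SE; limma, adjusted p = 0.0365), and -0.89 ± 0.098 (adjusted p = 0.00106 by limma) without that array. The call was lost in 6 of the 8 fits that left out 1 array, with adjusted p up to 0.0915; the fits that kept it were those omitting scrambled replicate 1 or Sirt6 shRNA replicate 2. With normexp the difference was -0.39 and still called.

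Csf1r, the receptor tyrosine kinase for Csf1 and interleukin 34, read -2.55, -2.47, -3.06 and -2.59 on the scrambled arrays and -3.37, -2.79, -3.31 and -3.48 on the Sirt6 shRNA arrays. Scrambled replicate 3 was lower than Sirt6 shRNA replicate 2, so the groups overlapped. The difference was -0.57 ± 0.18 (SE; limma, adjusted p = 0.0458), and -0.72 ± 0.14 (adjusted p = 0.0103 by limma) without Sirt6 shRNA replicate 2. The call was lost in 6 of the 8 single omissions, with adjusted p up to 0.112; the fits that kept it were those omitting scrambled replicate 3 or Sirt6 shRNA replicate 2. With normexp the difference was -0.24 and still called. These values came from 1 probe, since a second Csf1r probe stood well above background on none of the 8 arrays.

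Trem2 is a receptor for lipids and lipoproteins, and Tyrobp, also called DAP12, is the adaptor through which it signals. Trem2 read 0.44, 0.87, 0.51 and 0.75 on the scrambled arrays and -0.20, 0.83, -0.37 and -0.14 on the Sirt6 shRNA arrays. The other 3 arrays with the Sirt6 shRNA lay below all scrambled arrays, while replicate 2 lay just under the highest of them. The difference of -0.61 ± 0.25 (SE; 95% interval -1.20 to -0.02) did not pass the test (limma, adjusted p = 0.107). Without that array it was -0.88 ± 0.12 and passed (limma, adjusted p = 0.00231). Trem2 has 10 spots per array with an SD among them of 0.05 to 0.07, and Sirt6 shRNA replicate 2 was 1.07 above the mean of the other 3.

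Tyrobp read 2.70, 3.15, 2.62 and 2.96 on the scrambled arrays and 2.29, 3.17, 2.08 and 2.42 on the Sirt6 shRNA arrays. Here Sirt6 shRNA replicate 2 was the highest of all 8. The difference was -0.36 ± 0.23 (SE; 95% interval -0.90 to 0.18; limma, adjusted p = 0.281). Without that array it was -0.59 ± 0.15 (adjusted p = 0.0237 by limma), and without Sirt6 shRNA replicate 3 it was -0.22 (adjusted p = 0.524 by limma).

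Itgam, the CD11b chain of complement receptor 3, read -0.88, -0.43, -0.97 and -0.72 on the scrambled arrays and -1.47, -0.63, -1.62 and -1.41 on the Sirt6 shRNA arrays. Sirt6 shRNA replicate 2 lay inside the scrambled range and the other 3 below it. The difference was -0.53 ± 0.22 (SE; limma, adjusted p = 0.106), and -0.75 ± 0.13 (adjusted p = 0.00667 by limma) without that array.

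Aif1, the calcium-binding protein known as IBA1, and Cd68, a lysosomal membrane glycoprotein, are the usual stains for microglia and phagocytes. Aif1 read 3.49, 3.91, 3.37 and 3.67 on the scrambled arrays and 2.88, 3.70, 2.62 and 2.93 on the Sirt6 shRNA arrays. Its difference was -0.58 ± 0.23 (SE; limma, adjusted p = 0.0935), and -0.80 ± 0.14 (adjusted p = 0.00669 by limma) without Sirt6 shRNA replicate 2, which lay inside the scrambled range. Cd68 read 1.17, 1.40, 0.90 and 1.19 on the scrambled arrays and 0.64, 1.45, 0.43 and 0.73 on the Sirt6 shRNA arrays. As for Tyrobp, Sirt6 shRNA replicate 2 was the highest of the 8. The Cd68 difference was -0.35 ± 0.21 (SE; 95% interval -0.85 to 0.14; limma, adjusted p = 0.251), and -0.57 ± 0.13 (adjusted p = 0.0165 by limma) without it. Without Sirt6 shRNA replicate 3 it was -0.22 (adjusted p = 0.479 by limma).

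**Figure D2:**
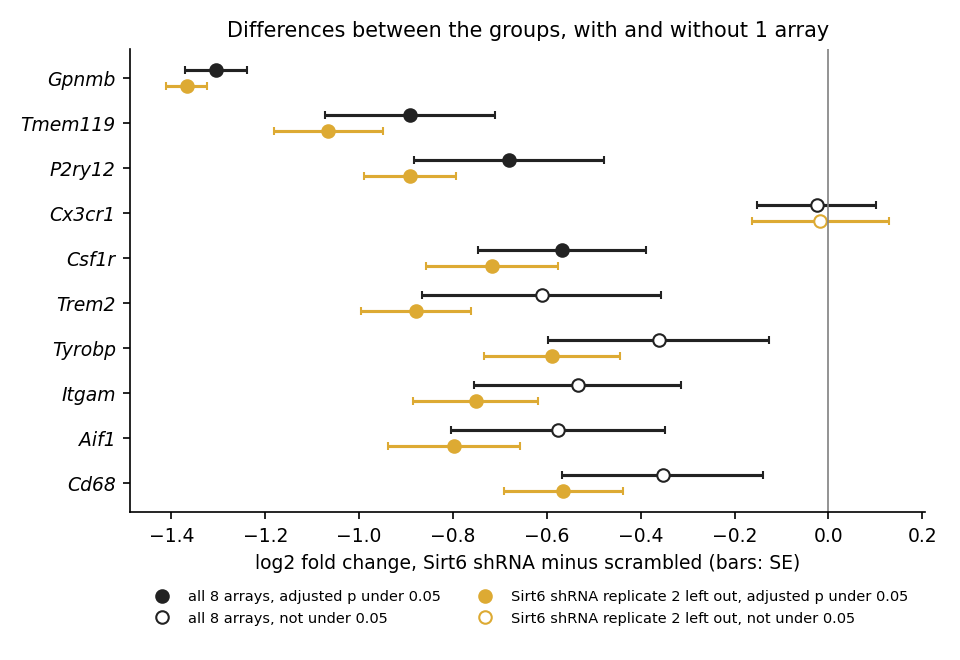
Log2 fold change (x axis, Sirt6 shRNA minus scrambled, bars give the SE) of each gene from all 8 arrays (black) and with Sirt6 shRNA replicate 2 left out (yellow); filled points have an adjusted p under 0.05. With all arrays 4 genes are filled, without that array 9 are, and Cx3cr1 stays near 0 in both.

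On Sirt6 shRNA arrays 1, 3 and 4, 9 of the 10 genes lay below all 4 scrambled arrays, which held for 19.2% of all genes. These 3 arrays were set apart by the values of the 10 genes themselves, so the count and the share are not comparable. With all 4 Sirt6 shRNA arrays, 2 of the 10 genes lay below all scrambled arrays, against 16.1% of all genes. Sirt6 shRNA replicate 2 lay inside the scrambled range for 6 genes, above it for Cd68 and Tyrobp, and below it for Gpnmb and Tmem119. With both arrays numbered 2 left out, a setting chosen after the data had been seen, 9 of the 10 genes were called lower and none higher, against 11.6% and 10.4% of all genes. The genes called were the same 9 as without Sirt6 shRNA replicate 2 alone.

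Cx3cr1, the receptor for the neuronal chemokine fractalkine, was the exception, and its 2 probes disagreed. The brighter probe, A_64_P008406, which stood for the gene, read 0.55, 0.54, 0.83 and 1.13 on the scrambled arrays and 0.72, 0.71, 0.78 and 0.75 on the Sirt6 shRNA arrays. The Sirt6 shRNA arrays lay within 0.06 of each other, inside a scrambled range of 0.54 to 1.13. The difference was -0.02 ± 0.13 (SE; 95% interval -0.32 to 0.27; limma, adjusted p = 0.905), and its sign turned under 2 other ways of scaling or background correction and without scrambled replicate 4. The mean of both Cx3cr1 probes gave -0.22 (limma, adjusted p = 0.186).

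The other Cx3cr1 probe, A_44_P1108690, read 0.69, 1.06, 0.76 and 0.91 on the scrambled arrays and 0.28, 1.04, 0.15 and 0.28 on the Sirt6 shRNA arrays. It was highest in replicate 2 of each group, and the other 3 Sirt6 shRNA arrays lay below all scrambled arrays. Its difference was -0.42 ± 0.19 in a fit of every kept probe on its own (SE; limma, adjusted p = 0.144). The probes lie on rat build rn4 at chr8:125033728-125033787 and chr8:125031563-125031622, on the minus strand, as is the gene. Their last 30 bases are shown with repeats of CA in capitals, since the tested probe ends in such a repeat.
A_64_P008406: aacagattCACACACACACACACACACACA
A_44_P1108690: actctgggtttccctccagcttttagcaaa
The repeat takes up the last 22 bases of the first probe. A run of CA of at least 18 bases was present in 25 of the 45598 probes, or 0.0548%. Whether the repeat bears on the reading of this probe was not tested.

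An Itgam probe gave a second reading beside a CA repeat. The brighter probe, A_44_P1161690, begins with 10 bases of it, a length reached in 0.178% of all probes, and A_43_P15993 holds none of more than 2 bases.
A_44_P1161690: CACACACACAcggttttaaacaagtggtag
A_43_P15993: tacaagcttggctttttcaaacgacagtac
Both are given by their first 30 bases, and they lie on rn4 at chr1:187385777-187385836 and chr1:187385032-187385565, the latter over a span longer than the 60 bases of the probe. The second probe read -2.79, -2.22, -2.87 and -2.38 on the scrambled arrays and -3.68, -2.50, -3.50 and -3.42 on the Sirt6 shRNA arrays, for a difference of -0.71 ± 0.27 (SE; limma on single probes, adjusted p = 0.0852). Both Itgam probes thus placed replicate 2 highest in each group. A further probe that matched Itgam through its accession but carries another name in the files, A_44_P1160533, gave -0.68 ± 0.21 (SE; limma on single probes, adjusted p = 0.0434).

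Pairs of probes for Aif1 and Tyrobp followed each other across the arrays. The second Aif1 probe gave a difference of -0.53 ± 0.24 (SE; limma on single probes, adjusted p = 0.144), and Sirt6 shRNA replicate 2 was 0.94 above the other 3 on it, against 0.89 on the first. The Tyrobp probes, A_42_P807697 at chr1:85369110-85369169 and A_44_P526676 at chr1:85369042-85369101 of rn4, lie next to each other on opposite strands, plus and minus. The second read -3.16, -2.59, -3.33 and -3.02 on the scrambled arrays and -3.57, -2.68, -3.49 and -3.53 on the Sirt6 shRNA arrays, a difference of -0.29 ± 0.23 (SE; limma on single probes, adjusted p = 0.389). Of 23057 probes with a position and a RefSeq gene strand, 94.9% lie on the strand of their gene, and RNA from which strand this probe reads was not tested. Of the 14 kept probes carrying the 10 symbols, 14 had a difference below 0, against 45.6% of all genes. In the fit of single probes 4 were called lower, against 14.4% of all probes. On Sirt6 shRNA replicate 2, 12 were at least 0.5 higher than on the mean of the other 3. The share of all probes with such an offset was not counted, and probes of 1 gene are not independent readings.

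**Figure D3:**
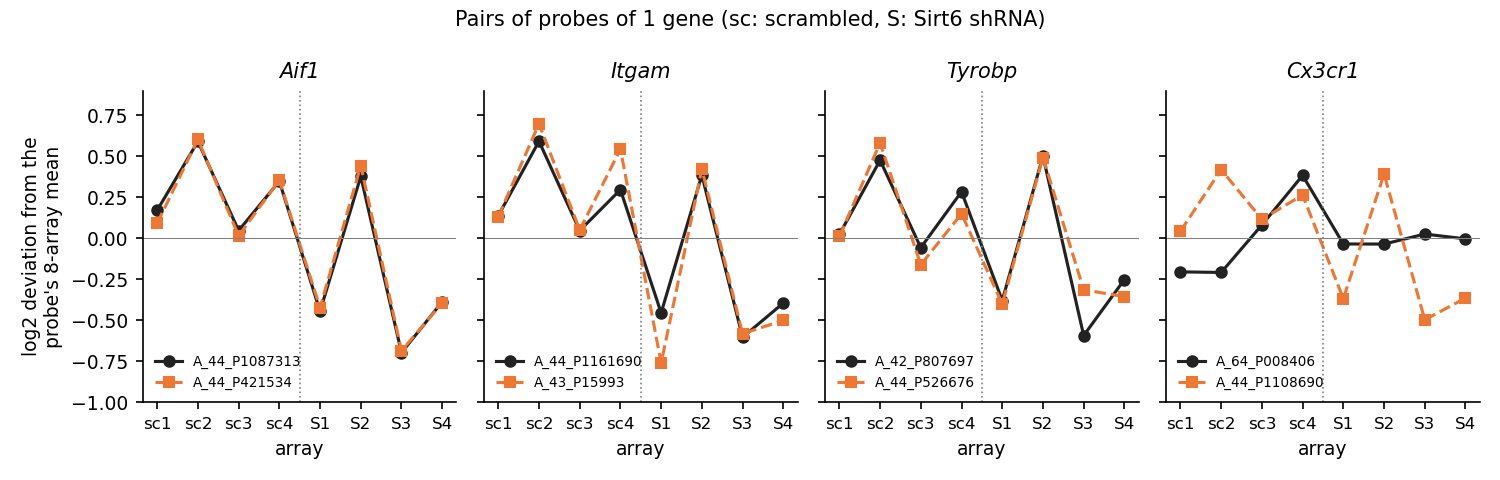
Log2 deviation of each probe from its own mean over the 8 arrays (y axis, log2 units) on scrambled arrays 1 to 4 (sc1 to sc4) and Sirt6 shRNA arrays 1 to 4 (S1 to S4), for the pairs of kept probes of 4 genes; lines join the readings of 1 probe. The probes of Aif1, Itgam and Tyrobp rise together at sc2 and S2, while for Cx3cr1 the second probe does so and the first does not.

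The other probes lie on rn4 as follows. Gpnmb was read at chr4:77182198-77182257, Tmem119 at chr12:43869614-43869673 and P2ry12 at chr2:148611053-148611112. Trem2 was read at chr9:8059065-8059124, Cd68 at chr10:56481726-56481785, Csf1r at chr18:57105231-57105932 and the brighter Aif1 probe at chr20:3716266-3716325. Exons and untranslated regions of that build were not used here.

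Over the 8 arrays, 8 of the 10 genes, picked from these same values, had similar profiles. For Tmem119, P2ry12, Csf1r, Trem2, Tyrobp, Itgam, Aif1 and Cd68, the root mean square difference between deviations ran from 0.04 to 0.28 over the 28 pairs, with a median of 0.17. Gpnmb differed from the others by 0.29 to 0.67, and the tested Cx3cr1 probe from those 8 by 0.41 to 0.53. The split is not sharp, since Tmem119 lay 0.28 from Cd68 and 0.29 from Gpnmb. From each of the 8, the median difference to all genes was 0.37 (Cd68) to 0.53 (Tmem119). The 8 arrays are common to all these profiles, and the figures describe likeness with no test.

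The genes outside the list with the closest profiles were in part other leukocyte genes. For Aif1 they were Fcer1g, the signalling chain of Fc receptors, at 0.05, then Laptm5 and RGD1559588. For Itgam they were Laptm5, a lysosomal protein of blood cells, at 0.04, then Clec4a3 and C1qa. For Tyrobp they were Lst1, C1qa and Rac2, at 0.04 to 0.05. P2ry12 lay closest to Tnf, Batf and Ctss, Trem2 to RGD1562525, Clec4a2 and Ctss, and Cd68 to Ptpn18, Cmtm7 and Rac2. Tmem119 lay closest to C2, Gmfg and Tnf at 0.09 to 0.11, and Csf1r less closely to Foxr1, Tgfb1 and Arsl at 0.12 to 0.13. The tested Cx3cr1 probe lay closest to Cdk12, Glra2 and Amn1, whose differences were 0.00, 0.04 and 0.00.

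For the lists that follow, the shares over all genes were 14.8% lower and 15.6% higher, and 14.6% and 14.5% without Sirt6 shRNA replicate 2. A count near these shares is no result about its list, and no test was run over any list. Counts without Sirt6 shRNA replicate 2 are descriptive and lend no support. That array was singled out by microglial genes, and several lists hold genes whose profiles lay close to theirs. Ligands and survival factors of microglial receptors form a list of 9 genes, of which 7 fell and none rose. Csf1, a ligand of Csf1r, fell by 0.50 ± 0.036 (SE; limma, adjusted p = 8.2e-05), Tgfb1 by 0.64 ± 0.16 (adjusted p = 0.0176 by limma) and Apoe, the lipoprotein that Trem2 binds, by 0.45 ± 0.055 (adjusted p = 0.000799 by limma). Tgfb2 fell by 0.37, and 1 of its other 3 probes read 0.12. The list's mean deviation was 0.10 to 0.16 on the scrambled arrays, -0.17 to -0.13 on Sirt6 shRNA arrays 1, 3 and 4 and -0.09 on replicate 2. The same 7 against 0 was counted without that array.

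A list of 11 signalling genes around Trem2 and Tyrobp holds kinases and adaptors of the pathway, and also Hcst, a separate adaptor, and the inhibitory receptor Sirpa. All 11 had differences below 0 and 3 passed the test: Plcg2, Blnk and Sirpa. Blnk, an adaptor of immune receptor kinases, fell by 0.73 ± 0.18 (SE; limma, adjusted p = 0.0197). Sirpa, which binds Cd47, fell by 0.31 ± 0.049 (SE; limma, adjusted p = 0.00256). For Sirpa, Sirt6 shRNA replicate 2 was 0.16 above the mean of the other 3, against 0.30 (Lat2) to 1.05 (Vav1) for the rest of the list. Plcg2, a phospholipase, fell by 0.79 ± 0.25 (SE; limma, adjusted p = 0.0456) but was well above background on 2 of the 4 Sirt6 shRNA arrays. The Plcg2 and Blnk calls were lost in at least 1 single omission, at adjusted p up to 0.111 and 0.0529 (limma). Without Sirt6 shRNA replicate 2, 7 of the 11 were lower, against 14.6% of all genes. The list's mean on that array was 0.32 against -0.51 to -0.22 on the other 3.

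Among 10 further genes of homeostatic microglia, 3 fell and 2 rose, against 14.8% and 15.6% of all genes. Slc2a5, the fructose transporter, fell by 1.18 ± 0.29 (SE; limma, adjusted p = 0.0168) and was well above background on 2 of the 4 Sirt6 shRNA arrays. Sall1, a transcription factor that is also made by neural progenitors, fell by 0.37. Tgfbr1, a receptor of wide distribution, rose by 0.35. Of 10 myeloid transcription factors, Runx1 fell by 0.49 ± 0.083 (SE; limma, adjusted p = 0.00361) and Mef2c, which neurons also make, by 0.22. Spi1, which encodes PU.1, had a difference of -0.34 ± 0.21 (SE; limma, adjusted p = 0.243), and -0.54 (adjusted p = 0.0205 by limma) without Sirt6 shRNA replicate 2; it was singled out after its values were seen.

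Genes of the phagocyte lysosome and lipid handling numbered 14 tested, of which 6 fell and none rose. Mertk, a receptor for the engulfment of dying cells that astrocytes also make, fell by 1.44 ± 0.22 (SE; limma, adjusted p = 0.00204). The lysosomal genes Gusb, Lamp1 and Ctsd, which are made in all cell types, fell by 0.53, 0.49 and 0.39. The list's mean on Sirt6 shRNA replicate 2 was -0.00, between the scrambled range of 0.09 to 0.21 and the range of -0.22 to -0.16 on the other 3.

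Complement and phagocytic receptor genes gave 2 lower of 8 tested, C3ar1 at -0.64 and Tlr2 at -0.58, against 14.8% of all genes. The C3ar1 call was lost in at least 1 single omission, at adjusted p up to 0.0756 (limma). Without Sirt6 shRNA replicate 2, 4 of the 8 were lower, against 14.6% of all genes. Of 7 cytokine genes tested, 3 fell: Tnf by 0.72 ± 0.18 (SE; limma, adjusted p = 0.021), and the chemokines Ccl3 by 0.67 and Ccl4 by 0.58. Each of these 3 calls was lost in at least 1 single omission, at adjusted p up to 0.0573, 0.0946 and 0.0977 (limma). In the list of 17 genes shared by leukocytes, Ncf1, a subunit of the phagocyte oxidase, fell by 0.56, while Cd14 and Coro1a rose by 0.21 each. These 3 calls were also lost in at least 1 single omission, at adjusted p up to 0.0997, 0.0579 and 0.0761 (limma). Without Sirt6 shRNA replicate 2 this list of 17 gave 10 lower and 1 higher, against 14.6% and 14.5% of all genes. Its mean on that array was 0.39, above the scrambled range of -0.02 to 0.36.

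**Figure D4:**
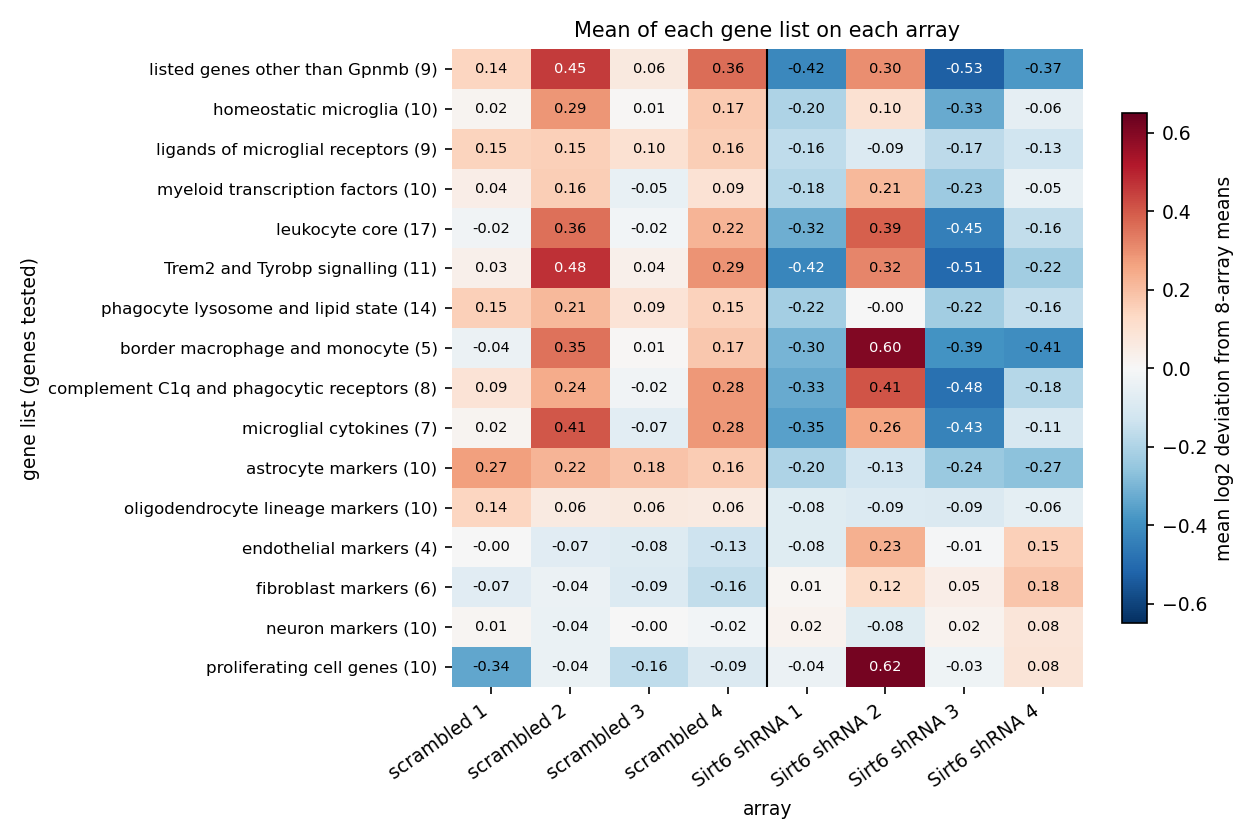
Mean log2 deviation from the 8-array means (colour and printed value) of each gene list with at least 4 genes tested (rows) on each array (columns); the number of genes tested stands in brackets. The lists of leukocyte and microglial genes are higher on Sirt6 shRNA 2 than on the other 3 Sirt6 shRNA arrays. Within that group the lists of proliferating cell genes, at 0.62, endothelial markers, at 0.23, and astrocyte markers, at -0.13, are also highest there. The astrocyte list is below 0 on all 4.

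Genes of other cell types also moved with the group. Of 10 astrocyte markers 7 fell and none rose, with S100b at -1.42 ± 0.078, Gfap, the astrocyte filament, at -0.71 ± 0.069, Gja1 at -0.63 ± 0.062 and Aldh1l1 at -0.39 ± 0.047 (SE; adjusted p at most 0.000711 by limma). The astrocyte list's mean was 0.16 to 0.27 on the scrambled arrays and -0.27 to -0.13 on all 4 Sirt6 shRNA arrays, replicate 2 included. Sirt6 shRNA replicate 2 minus the mean of the other 3 ran from -0.03 for Fgfr3 to 0.30 for S100b over the 10 astrocyte markers, and was 0.25 for Gpnmb. The part of astrocytes in the lower Gpnmb signal was not tested. Of the melanocyte markers, Tyr, Tyrp1 and Dct were not well above background on any array and Mlana fell by 0.66 ± 0.083 (SE; limma, adjusted p = 0.000955).

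Of 14 markers of border macrophages and monocytes, 5 were tested and none passed the test. Siglec1, a sialic acid receptor of macrophages, differed by -0.99 ± 0.36 (SE; limma, adjusted p = 0.0743) and by -1.35 ± 0.21 (adjusted p = 0.00391 by limma) without Sirt6 shRNA replicate 2, and Plac8 by 0.34 ± 0.19 (SE; limma, adjusted p = 0.217). Cd163, Ccr2, F13a1, Ccr1, Ly6c and S100a9 were not well above background on any array, while Mrc1 and Pf4 were so on 3 arrays. The mean of the 5 on Sirt6 shRNA replicate 2 was 0.60, above the scrambled range of -0.04 to 0.35, and -0.41 to -0.30 on the other 3.

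Of 10 genes of dividing cells, 3 rose, Nusap1 by 0.62, Top2a by 0.61 and Tpx2 by 0.55, and none fell, against 15.6% and 14.8% of all genes. Each of the 3 calls was lost in at least 1 single omission, at adjusted p up to 0.0568, 0.103 and 0.0889 (limma). Without Sirt6 shRNA replicate 2, 3 rose and 1 fell, Aurkb at -0.73 (limma, adjusted p = 0.000866). The mean of this list of 10 was 0.62 on Sirt6 shRNA replicate 2, against -0.04 to 0.08 on the other 3 and -0.34 to -0.04 on the scrambled arrays. Within the Sirt6 shRNA group it was thus highest on replicate 2, as 9 of the 10 microglia and macrophage genes were, and its part in their levels there was not tested. Of 10 neuron markers, 4 rose and 2 fell, against 15.6% and 14.8% of all genes. They included Nefm at 0.35, Tubb3 at 0.32, Gad1 at -0.41 and Gad2 at -0.31. The neuron list's mean stayed between -0.08 and 0.08 on all 8 arrays. Oligodendrocyte lineage markers gave 3 lower and 1 higher of 10, with Mbp at -1.31 on 1 probe and 0.03 on the other, Olig1 at -0.37, Cnp at -0.21 and Cspg4 at 0.23. Of 6 fibroblast markers 4 rose, Col1a2, Col3a1, Fn1 and Col1a1, by 0.20 to 0.36, and of 4 endothelial markers Kdr rose by 0.41 and Pecam1 differed by -0.46 (limma, adjusted p = 0.0769). The Cnp and Col1a1 calls were lost in at least 1 single omission, at adjusted p up to 0.0855 and 0.0668 (limma).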

How the data were processed

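Total RNA was measured on 8 one-colour Agilent arrays, 4 per group, grouped by the labels. The deposited spot intensity is the processed signal of Agilent Feature Extraction 11.5.1.1, background-subtracted and detrended per the file headers, and not yet scaled between arrays. Raw mean and background intensity and spot flags are deposited beside it. The authors' deposited log2 table equalled the log2 processed signal minus 1 constant per array, within an SD of 0.0029, with column medians of -3.71 to -3.60. Its direction and scale thus match the scanner values.

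Control spots and outlier spots were left out, spots of a probe were averaged in log2, and each array's 75th percentile was subtracted. Probes well above background on at least 4 of 8 arrays were kept, and the brightest kept probe stood for a gene. Of the 45598 probes, 21109 were named by systematic name, 2631 by another accession, 5159 by their symbol, 352 by a former symbol in a RefSeq table of GRCr8, while 16347 kept the file's name. The 2 groups were compared by limma 3.58.1 under R 4.3.3, with two-sided moderated statistics from lmFit and eBayes and Benjamini-Hochberg adjustment, tested on simulated data first. Tables and figures were made in Python 3.11.15. The number of arrays limits the precision.

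The 10 genes and the other lists were chosen with earlier results of these data known. Named genes were Sirt6, the 10 genes, up to 4 called genes of largest change per list or, with fewer than 2 called, the 2 with the lowest p, and the 3 named genes of closest profile, leaving aside transcripts without a symbol. Alternatives were quantile normalization, median centring, normexp (offset 50), E1A spike-in scaling, the authors' log2 values, 16 added before log2, 2 other filters, the mean of a gene's probes, single probes, trend and robust eBayes, a block for the replicate number, array weights, and each array left out in turn. Leaving out both arrays numbered 2 was chosen after seeing the data, as was the stress on the fit without Sirt6 shRNA replicate 2. In addition, 1 gene of the homeostatic microglia list is counted but not reported by name here.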

Additional observations from a re-analysis of the deposited data

Results flagged for a closer look

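In the Sirt6 shRNA group, 1 array lay far from the other 3 for Tmem119, where the gap from replicate 2 to the next array took up 0.844 of the group's range, and for P2ry12, where it took up 0.864. Both passed Dixon's critical value at the 95% level. The mean of the border macrophage and monocyte list had the same gap on Sirt6 shRNA replicate 2, at 0.899 of the range. In the scrambled group, the mean of the oligodendrocyte lineage list on replicate 1 lay above the other 3 by 0.944 of the range. These were 4 of 56 groups of 4 tested, and chance passes about 1 in 20.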

How the results depend on the processing

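Gpnmb and Tmem119 were called lower in all 22 alternatives, at adjusted p up to 0.00197 and 0.0254. P2ry12 was called in 15 of 22 and Csf1r in 14, Aif1, Itgam and Trem2 in 5 each, Cd68 and Tyrobp in 2 each and Cx3cr1 in none. The count of 4 called among the 10 became 7 with normexp and with array weights (16.67% and 15.96% of all genes called lower). It became 2 with no filter on dim probes, which tests more genes (7.01%), and 9 with both arrays numbered 2 left out (11.6%). Leaving out each array gave 2 to 9. The value of 9 came without Sirt6 shRNA replicate 2 (14.6%). The value of 2 came without scrambled replicate 2 or 4 or Sirt6 shRNA replicate 1, 3 or 4 (11.9% to 12.9%). Scaling on the E1A spike-ins lowered the calls over all genes from 6874 to 3270 and over the other gene lists from 57 to 34; the cause was not tested. The share of lower calls over all genes was 48.7%, 64.8% with median centring and 36.0% with the spike-ins, while every call among the 10 was lower in each setting. The Cx3cr1 difference turned to 0.0147 with normexp, 0.0496 with the spike-ins and 0.0986 without scrambled replicate 4, and leaving out each array gave -0.0985 to 0.0986, while the mean of its probes gave -0.222; the cause was not tested.

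With the replicate number as a block, 7 of the 10 genes were called lower, against 14.3% of all genes. Deviations of same-numbered arrays correlated at 0.064, 0.16, 0.133 and 0.033 across genes, and 2 of 4 numbers correlated best with their own. These correlations cannot decide whether the numbers pair samples. The labels do not say that they do, and for that reason the main fit used no pairing. Whether same-numbered arrays share a preparation of cells was not tested. Csf1r, P2ry12 and the second Itgam and Tyrobp probes had processed signals of 25.9 to 107, which limits their precision. Tmem119 was dim as well, at 71.2 to 174, and the same limit holds for it.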
